A study of Homo sapiens with 4 samples.

Results

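H19, IGF2 and 8 further genes of the insulin-like growth factor (IGF) axis, namely IGF1R, IGF2R, INSR, IRS1, IRS2, IGFBP2, IGFBP4 and IGFBP5, were followed in SH-SY5Y cells that had or had not been differentiated. The 10 genes were taken by name, with the rise of H19 in these same data as the reason for the choice. Their values are therefore a description and support no test of their own. All 10 were found among the 23576 rows of the authors' deposited table, and 9 were tested by the authors. IRS1 was marked as not tested.

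SH-SY5Y is a human neuroblastoma line of sympathoadrenal origin, a subclone grown as an adherent culture. The differentiated group (2 libraries) is the day 16 state. It had received 10 µM retinoic acid for 7 days in medium with 5% fetal bovine serum, then the neurotrophin BDNF at 20 ng/mL for 9 days in medium without serum. Undifferentiated cells (2 libraries) are the day 0 state of the same line, maintained in medium with 10% serum. Retinoic acid, BDNF, the loss of serum and the time in culture differ together between the groups and cannot be told apart. The authors' deposited table gives 1 FPKM, a fragment count scaled to transcript length and library size, for each gene in each group. How far the 2 libraries of a group lay apart is therefore unknown, and so is their depth. In bulk RNA, fewer cells of a type and less RNA per cell cannot be told apart.

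IGF2 encodes a secreted growth factor that signals through the receptor tyrosine kinase IGF1R and through a form of the insulin receptor, INSR, while IGF2R carries it to the lysosome for breakdown. The docking proteins IRS1 and IRS2 link the active receptors to phosphoinositide 3-kinase (PI3K) and AKT, and the IGF binding proteins hold the growth factor outside the cell and set how much of it is free. H19 is a long non-coding RNA whose gene lies beside IGF2: in most tissues H19 is transcribed from the maternal chromosome and IGF2 from the paternal one, under the control of shared enhancers and of a region between them that binds the insulator protein CTCF. Autocrine IGF2 is a known growth signal in neuroblastoma lines.

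H19 is also the host of a microRNA, miR-675, which is shown because it is the one part of H19 with a defined sequence output. In the RefSeq table (GRCh38.p14) its hairpin is 73 bases long and lies on the minus strand of chromosome 11, from 1996759 to 1996831. It falls in exon 1 of the 5 exons of the GENCODE release 29 transcript ENST00000414790.6, at bases 1045 to 1117 of 2348. The hairpin follows with its mature arms in capitals, then each arm with its seed (bases 2 to 8) in capitals.
hsa-mir-675: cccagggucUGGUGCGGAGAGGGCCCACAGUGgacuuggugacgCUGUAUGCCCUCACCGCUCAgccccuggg
miR-675-5p: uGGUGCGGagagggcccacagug
miR-675-3p: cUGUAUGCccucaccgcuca

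The arms have different seeds. In mouse placenta, miR-675 is known to lower Igf1r, so the letters that pair with each seed were looked for in the 9 coding genes. For each gene the 3′ untranslated region of its longest coding transcript in the GENCODE basic set was searched. CCGCACC, the match to the 5p seed, was found in 0 of them. GCATACA, the match to the 3p seed, was found at 2 places in IGF1R and at 2 in IRS2, and in 0 of the other 7. Regions of similar length were searched for GCATACA at 1 place or more. It was found in 25.3% of those near the size of the IGF1R region (7088 bases). Near the size of the IRS2 region (3606 bases) the share was 13.1%, so a single match is not rare. The share of regions with 2 matches was not counted. The 4 places are shown over 30 bases each with the match in capitals (GRCh38). The first capital lies at 98958628 and 98963638 on chromosome 15, plus strand, for IGF1R, and at 109753284 and 109752910 on chromosome 13, minus strand, for IRS2.
IGF1R, first: gaccatgaaacatttGCATACAcatcgtct
IGF1R, second: ttcatgatgattacaGCATACAcagtgatc
IRS2, first: agaagatgtaccaatGCATACAttaagaat
IRS2, second: agaagacataccgatGCATACAtcaagaat
The IRS2 pair shares 26 of 30 bases. A match describes letters only: the row of MIR675 in the authors' deposited table is listed at 0 FPKM in both groups and marked as having too little data, so miR-675 itself has no usable level here. That row nevertheless carries the same log2 fold change as H19, 5.78, and it was not used.

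The levels of H19 and IGF2 were higher in differentiated cells, that of IGF1R was lower, and the other 6 tested genes were not called. A gene counts as called where the authors' q is below 0.05 and the 2 groups average 1 FPKM or more. By that rule 2 of the 9 tested genes were higher, against 2.20% of 11200 genes in the whole table, and 1 of 9 was lower, against 31.4%. After each of 3 rescalings, 2 of the 9 lay above and 0 below, against 5.64% and 4.56% of 11169 genes relative to the median gene, 8.01% and 2.80% with equal sums, and 6.43% and 3.68% with equal upper quartiles. Since the genes were chosen on this contrast, nothing is read from any of these shares. The SE beside a log2 fold is the one that the authors' own statistic implies. The median log2 fold change of all usable tested genes was -0.62, so a fold near that value is the ordinary one in this table.

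**Figure D1:**
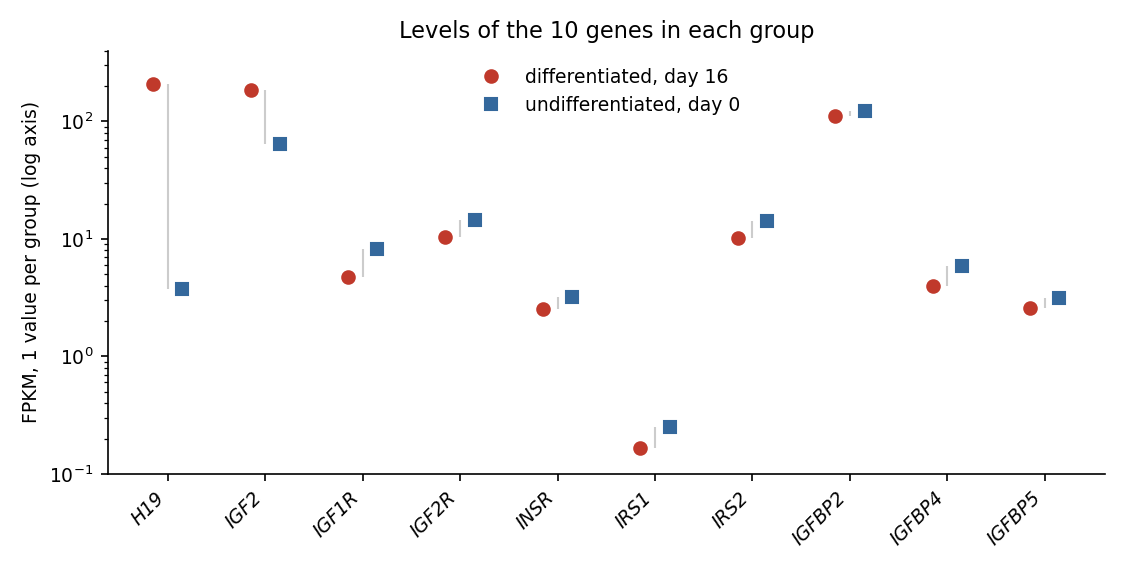
FPKM of the 10 genes on a log axis, 1 value per group, with circles for differentiated cells and squares for undifferentiated cells and a grey line joining the pair. H19 stands at 207 FPKM in differentiated cells and 3.76 in undifferentiated cells, IGF2 is the other gene whose circle lies above its square, and IRS1 stays below 1 FPKM in both groups.

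H19, at chromosome 11, 2016406 to 2019065 (hg19), had 207 FPKM in differentiated cells and 3.76 FPKM in undifferentiated cells in the authors' deposited table. The ratio was 55.1, a log2 fold of 5.78 (implied SE 0.281) with q listed at 0. Its rank among the 12810 tested rows was 240 in differentiated cells and 8188 in undifferentiated cells. Within the 10 genes it ranked first in differentiated cells and seventh in undifferentiated cells. It held 38.5% of their summed FPKM in differentiated cells and 1.57% in undifferentiated cells. Its statistic was the largest in size among the tested genes that averaged 1 FPKM or more. Its fold was second among the 238 such genes called higher after small RNAs and clone-based, antisense and pseudogene names were set aside.

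Genes whose fold was nearest to that of H19, over the 2 group values, were far less abundant. In the authors' deposited table TRHDE, which encodes an enzyme that degrades thyrotropin-releasing hormone, had 2.10 FPKM in differentiated and 0.0227 in undifferentiated cells, a log2 fold of 6.53. The calcium channel subunit gene CACNA2D3 had 3.83 and 0.0889 FPKM in differentiated and undifferentiated cells in the authors' deposited table (5.43). SYT2, a synaptic vesicle calcium sensor, had 3.01 FPKM in differentiated and 0.0913 FPKM in undifferentiated cells in the authors' deposited table (5.04). Their implied SEs, 1.60, 1.02 and 0.710 in the authors' deposited table, were larger than that of H19.

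IGF2, at chromosome 11, 2150342 to 2182439 (hg19), had 185 FPKM in differentiated cells and 63.9 FPKM in undifferentiated cells in the authors' deposited table. The ratio was 2.90, a log2 fold of 1.54 (implied SE 0.199, q = 2.67e-12). IGF2 was already abundant before differentiation, second of the 10 genes in both groups. The H19 level was 1.12 times the IGF2 level in differentiated cells and 0.0589 times in undifferentiated cells. The listed locus of IGF2 also holds the rows of IGF2-AS, INS, INS-IGF2 and MIR483, and INS-IGF2 is a readthrough that shares IGF2 exons. How reads were divided among overlapping and antisense genes is not given in the sources used here, so the IGF2 value is uncertain to that extent. The other rows of the locus were low in the authors' deposited table: IGF2-AS had 2.99 FPKM in differentiated and 1.35 in undifferentiated cells (q = 0.852), and INS-IGF2 had 0.461 and 0.149 FPKM in differentiated and undifferentiated cells (q = 0.901). INS, the insulin gene, was at 0.492 FPKM in differentiated cells and listed at 0 in undifferentiated cells (q = 0.600 by the authors' deposited table).

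**Figure D2:**
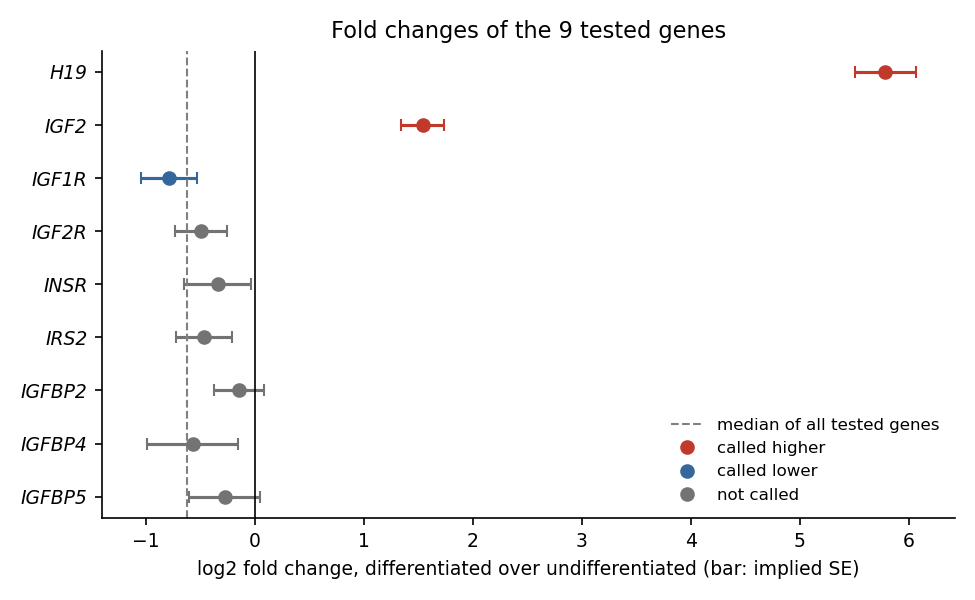
Log2 fold change, differentiated over undifferentiated, of the 9 tested genes, with bars for the implied SE, a solid line at 0 and a dashed line at -0.62, the median of all tested genes. H19 (5.78) and IGF2 (1.54) lie far to the right, and the other 7 points lie between -0.79 and -0.15, with IGF1R left of the dashed line and the other 6 right of it.

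None of the other genes near H19 on chromosome 11 was called higher. Of 25 listed neighbours, 8 were tested and averaged 1 FPKM or more. Of these 8, 0 were called higher, beside 2.20% of all genes, so 0 is the ordinary count for so few genes. Another 3 of the 8 (37.5%, beside 31.4% of all genes) were called lower. The median log2 fold change of the 8 was -0.56, beside -0.62 over all genes. MRPL23, a mitochondrial ribosomal protein gene on the far side of H19 from IGF2, fell to 44.3 FPKM in differentiated cells, against 117 in undifferentiated cells, in the authors' deposited table (log2 -1.41, implied SE 0.287, q = 2.31e-05). TSSC4 (-1.30, q = 0.0213) and the nucleosome assembly gene NAP1L4 (-0.92, q = 0.00249) were also called lower in the authors' deposited table. Relative to the median gene none of the 3 passed, with Benjamini-Hochberg adjusted p of 0.0586, 0.453 and 0.604 by a normal test. TNNI2 and TNNT3, troponin genes on the MRPL23 side that were picked out after their values were seen, averaged under 1 FPKM. Their log2 folds in the authors' deposited table were 3.11 (q = 0.292) and 2.27 (q = 0.130). The imprinted genes farther along the chromosome were not called: CDKN1C, a cell cycle inhibitor gene, had 6.73 FPKM in differentiated and 8.00 in undifferentiated cells (q = 0.678), and the non-coding KCNQ1OT1 had 0.729 and 0.776 FPKM in differentiated and undifferentiated cells (q = 0.817), both from the authors' deposited table.

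**Figure D3:**
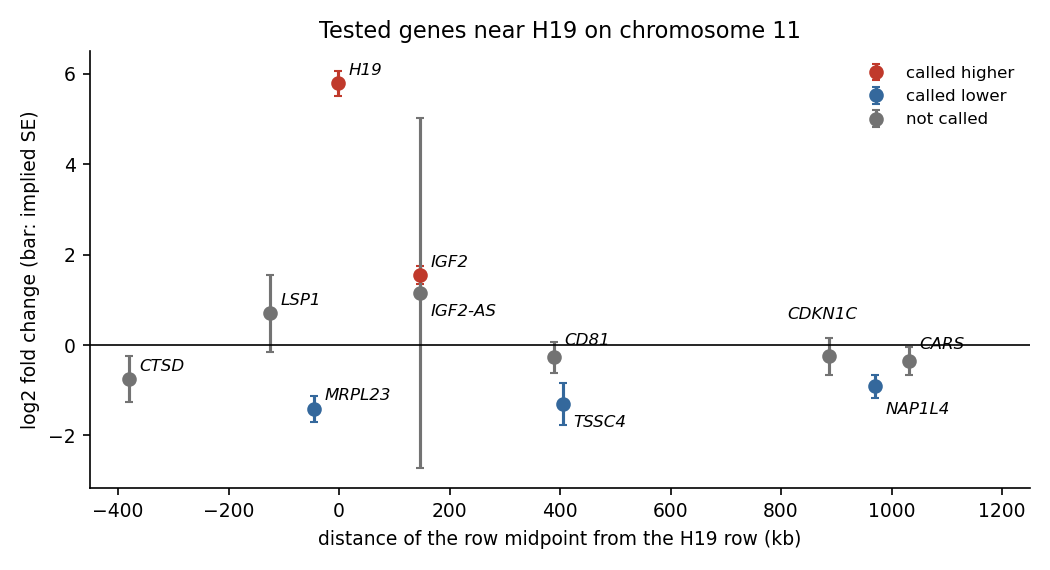
Log2 fold change of the tested genes near H19 that averaged 1 FPKM or more, against the distance of the midpoint of each row from the H19 row in kilobases; bars are implied SEs and colours mark calls. H19 and IGF2 are the points called higher, while MRPL23, TSSC4 and NAP1L4 were called lower; the IGF2-AS bar is wide because its implied error was 3.87.

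Muscle and liver are tissues where H19 and IGF2 are abundant before birth. Of 8 muscle or liver markers, 0 reached 1 FPKM in either group in the authors' deposited table, and AFP, CKM, MYOD1 and TTR were at 0 in both. Their summed level was 0.147 FPKM in differentiated and 0.155 FPKM in undifferentiated cells. All 12 sympathoadrenal neuroblast markers were above 1 FPKM in both groups, from 5.34 FPKM upward in differentiated and from 8.08 FPKM upward in undifferentiated cells in the authors' deposited table. Of the 12, 1 was called higher and 6 lower, beside 2.20% and 31.4% of all genes. DBH, an enzyme gene of noradrenaline synthesis, had 11.9 FPKM in differentiated and 50.7 FPKM in undifferentiated cells, and the transcription factor gene GATA2 had 5.34 and 38.5 FPKM in differentiated and undifferentiated cells, in the authors' deposited table. Both were lower under all 3 rescalings too, and the 1 called higher was the adhesion gene L1CAM. TH, the enzyme gene that starts catecholamine synthesis, is not among the 12 and had 0.202 FPKM in differentiated cells and 0 in undifferentiated cells in the authors' deposited table. Of 7 fibroblast markers 5 were at 1 FPKM or more in both groups, with sums of 33.4 FPKM in differentiated and 42.8 FPKM in undifferentiated cells. Of these 5, 0 were called higher and 3 lower, beside 2.20% and 31.4% of all genes. The 3 were DCN (log2 -1.96, q = 0.00727), PDGFRB (-0.95, q = 0.00817) and THY1 (-1.14, q = 0.00551) in the authors' deposited table. None of the 3 passed relative to the median gene (Benjamini-Hochberg adjusted p 0.165, 0.625 and 0.426 by a normal test). The authors' deposited table has COL1A2 at 0 in differentiated cells and 0.0859 FPKM in undifferentiated cells, while LUM had 17.95 and 12.5 FPKM (q = 0.173) and COL3A1 3.51 and 3.34 FPKM (q = 0.893) in differentiated and undifferentiated cells. Relative to the median gene, and under both other rescalings, LUM was higher. Of 10 markers of mesenchymal or Schwann-like cells, 3 in differentiated and 5 in undifferentiated cells reached 1 FPKM, with sums of 94.4 FPKM in differentiated and 215 FPKM in undifferentiated cells, most of it VIM. Of the 3 that were tested and averaged 1 FPKM or more, 0 were called higher and 2 lower, VIM and FN1, to be read beside the same shares of all genes. Relative to the median gene FN1 passed and VIM did not (adjusted p 0.0350 and 0.102). SOX10 and PRRX1 were at 0 in undifferentiated cells in the authors' deposited table. The part of these cell types in the H19 and IGF2 values was not tested.

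Among the receptors, IGF1R, at chromosome 15, 99192761 to 99507759 (hg19), had 4.72 FPKM in differentiated cells and 8.17 FPKM in undifferentiated cells in the authors' deposited table. The log2 fold of IGF1R was -0.79 (implied SE 0.260, q = 0.0121). Relative to the median gene the difference was -0.17 (adjusted p = 0.826), so the call rests on the authors' scaling. IGF2R, at chromosome 6, 160390131 to 160527583 (hg19), had 10.4 FPKM in differentiated and 14.6 FPKM in undifferentiated cells in the authors' deposited table (log2 -0.49, implied SE 0.239, q = 0.103). INSR, at chromosome 19, 7112266 to 7294011 (hg19), had 2.55 FPKM in differentiated and 3.23 FPKM in undifferentiated cells in the authors' deposited table (log2 -0.34, implied SE 0.308, q = 0.411). The order of the 3 receptors was the same in both groups, with IGF2R above IGF1R and IGF1R above INSR. IGF2 had a higher FPKM in differentiated cells and each receptor a lower one, so the ratio of IGF2 to each receptor was larger there. It was 39.2 in differentiated and 7.82 in undifferentiated cells for IGF1R, 17.9 and 4.38 for IGF2R, and 72.8 and 19.7 for INSR. These are ratios of transcript levels, with no error and no test. AIRN, the non-coding RNA antisense to IGF2R, had 0.0727 FPKM in differentiated and 0.0239 FPKM in undifferentiated cells by the authors' deposited table, without a test.

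Upstream DNA is shown for IGF1R, the receptor gene that was called. The RefSeq window runs from 250 bases before to 50 bases after the annotated start, at chr15:98648289-98648588 on the plus strand of GRCh38.p14. Capitals mark GGGCGG, the GC box letters bound by SP1, on either strand.
IGF1R promoter: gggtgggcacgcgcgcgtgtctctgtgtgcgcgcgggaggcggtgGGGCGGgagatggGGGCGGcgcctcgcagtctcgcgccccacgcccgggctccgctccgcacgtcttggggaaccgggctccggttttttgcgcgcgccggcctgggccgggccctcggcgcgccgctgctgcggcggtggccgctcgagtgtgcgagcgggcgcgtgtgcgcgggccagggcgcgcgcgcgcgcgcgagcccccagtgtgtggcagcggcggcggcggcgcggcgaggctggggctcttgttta
It is 79.7% G and C, and it holds GGGCGG 2 times and TATAAA 0 times. Windows were found for 9 of the 10 genes. Those of IGF2R, INSR, IRS1 and IRS2 are alike, with 75.7% to 79.3% G and C and 4 to 6 GGGCGG each, against a median of 58.7% G and C over 35116 windows of the same length. GGGCGG occurs in 44.95% of all windows and TATAAA in 11.5%. Among the 9 genes TATAAA was found in the IGFBP4 window alone. The DR5 motif, a spaced direct repeat of AGGTCA bound by retinoic acid receptors, was found in 0 of the 11 windows of these genes and in 0.00570% of all windows. The H19 window in the table belongs to the start of a longer RefSeq transcript, not of the 2660-base H19 row, and does not show the DNA next to the start of the row.

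Of the docking protein genes, IRS2 was expressed and IRS1 stayed low. IRS2, at chromosome 13, 110406184 to 110438914 (hg19), had 10.2 FPKM in differentiated cells and 14.2 FPKM in undifferentiated cells in the authors' deposited table (log2 -0.47, implied SE 0.258, q = 0.154). IRS1, at chromosome 2, 227596033 to 227663506 (hg19), had 0.165 FPKM in differentiated and 0.249 FPKM in undifferentiated cells by the authors' deposited table, without a test. The IRS2 level was 62.0 times the IRS1 level in differentiated and 57.0 times in undifferentiated cells. IRS4, another member of the family, was at 0.00316 FPKM in differentiated cells and at 0 in undifferentiated cells in the authors' deposited table.

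IGFBP2 was the most abundant binding protein gene of the 3 followed and, in undifferentiated cells, the most abundant of all 10 genes. At chromosome 2, 217498127 to 217529158 (hg19), it had 111 FPKM in differentiated cells and 123 FPKM in undifferentiated cells in the authors' deposited table (log2 -0.15, implied SE 0.230, q = 0.665). It held 20.6% of the summed FPKM of the 10 genes in differentiated and 51.2% in undifferentiated cells. IGFBP5, the next gene on the same stretch of chromosome 2 (217536828 to 217560272, hg19), had 2.57 FPKM in differentiated and 3.12 FPKM in undifferentiated cells in the authors' deposited table (log2 -0.28, implied SE 0.330, q = 0.551). The neighbours thus differed 43.1 times in level in differentiated and 39.3 times in undifferentiated cells. IGFBP4, at chromosome 17, 38599676 to 38613982 (hg19), had 3.98 FPKM in differentiated and 5.93 FPKM in undifferentiated cells in the authors' deposited table (log2 -0.57, implied SE 0.416, q = 0.297). All 6 tested genes that were not called had a lower FPKM in differentiated cells, and all 6 folds turned positive relative to the median gene and under 2 other scalings, none past the threshold. No direction is therefore given for them.

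The rest of the pathway was read from lists of genes by role. They hold 175 genes outside the 10, of which 111 were tested and averaged 1 FPKM or more. By the q of the authors' deposited table, 2 of the 111 were higher (1.80%, beside 2.20% of all genes) and 53 lower (47.7%, beside 31.4%). Their median log2 fold was -0.82, beside -0.62 over all genes. Relative to the median gene, 6 lay above and 5 below, against 5.64% and 4.56% of 11169 genes.

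Ligands and binding proteins outside the 10 were mostly low, and the few called are read beside the 2.20% of all genes called higher and 31.4% called lower. IGF1, the other IGF ligand, had 0.0236 FPKM in differentiated and 0.0116 FPKM in undifferentiated cells by the authors' deposited table, without a test. Of 4 tested genes of ligands and ligand processing, 0 were called higher and 1 lower, IGF2BP3, which encodes a protein that binds IGF2 mRNA. It fell to 14.0 FPKM in differentiated cells, against 31.7 in undifferentiated cells, in the authors' deposited table (log2 -1.18, implied SE 0.254, q = 6.44e-05). Its paralogs IGF2BP1 and IGF2BP2 were below 0.05 FPKM in both groups in the authors' deposited table. Of 5 tested genes for other binding proteins, their proteases and inhibitors, 0 were higher and 1 lower. This was IGFBP3, the main carrier of IGFs in serum, with 3.24 FPKM in differentiated and 9.42 in undifferentiated cells in the authors' deposited table (log2 -1.54, implied SE 0.394, q = 0.000955). Of 5 tested receptors and receptor partners, the ephrin receptor gene EPHB4 (-1.60) and the integrin gene ITGAV (-1.27) were called lower and 0 higher in the authors' deposited table. Relative to the median gene none of these 4 genes passed (adjusted p from 0.102 to 0.170).

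Which way the signalling genes downstream of the receptors differed depended on the scaling, as it did over the whole table. Of 24 tested adaptors and attenuators, 0 were called higher and 9 lower (37.5%, beside 31.4% of all genes), with a median log2 fold change of -0.76. None of the 24 was lower relative to the median gene, with equal sums or with equal upper quartiles, where 2, 3 and 2 were higher. In the same order 4.56%, 2.80% and 3.68% of all genes were lower and 5.64%, 8.01% and 6.43% higher. The adaptor genes SHC3 (-1.35) and DOK4 (-1.10), the phosphatase gene PTPN2 (-1.35) and the ubiquitin ligase gene NEDD4 (-1.30) were examples in the authors' deposited table. SHC3 fell to 2.27 FPKM in differentiated cells, against 5.79 in undifferentiated cells, in the authors' deposited table (q = 0.000128). Of 32 tested genes from PI3K to the mTORC1 kinase complex, 0 were higher and 15 lower (46.9%, beside 31.4% of all genes), with a median of -0.87. After the same rescalings 1, 0 and 0 of the 32 were lower, and 2 were higher each time, to be read beside the same shares of all genes. The PI3K regulatory subunit gene PIK3R3 (-1.50), the AKT phosphatase gene PHLPP2 (-1.15) and the S6 kinase gene RPS6KB1 (-1.09) were among the 15 by the authors' deposited table. GAB2, SHC2 and PIK3R1, chosen after their values were seen, lay above the median gene and were not called by the authors.

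The FOXO list, whose factors AKT holds out of the nucleus, had 2 genes called higher and 2 lower of 11 tested, each 18.2%, beside 2.20% and 31.4% of all genes, with a median of -0.17. The stress gene GADD45A (log2 1.88, q = 3.12e-05) and TXNIP, a thioredoxin inhibitor gene (log2 0.80, q = 0.00182), rose in the authors' deposited table. TXNIP had 99.8 FPKM in differentiated and 57.4 FPKM in undifferentiated cells in the authors' deposited table. KLF15 (-1.38, q = 0.0187) and PCK2 (-1.06, q = 0.0468) were called lower by the authors' deposited table but did not pass relative to the median gene (adjusted p 0.404 and 0.668). FOXO3 had 10.9 FPKM in both groups in the authors' deposited table.

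Of 24 tested regulators of the H19 and IGF2 imprint or transcripts, 0 were called higher and 20 lower, a share of 83.3% beside 31.4% of all genes, with a median of -1.12. Of the 24, 4 were lower relative to the median gene, 2 with equal sums and 3 with equal upper quartiles, beside 4.56%, 2.80% and 3.68% of all genes. MYC (-3.03), the DNA methyltransferase gene DNMT1 (-1.52) and the DNA demethylase gene TET3 (-1.63) fell in the authors' deposited table. All 3 also passed relative to the median gene, but TET3 did not with equal sums. LIN28B, which blocks let-7 maturation and was chosen after its values were seen, had a log2 fold of -1.46 in the authors' deposited table. It passed relative to the median gene, but not with equal sums or equal upper quartiles. DNMT1, which copies methylation marks at each division, had 11.4 FPKM in differentiated and 32.9 FPKM in undifferentiated cells in the authors' deposited table.

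**Figure D4:**
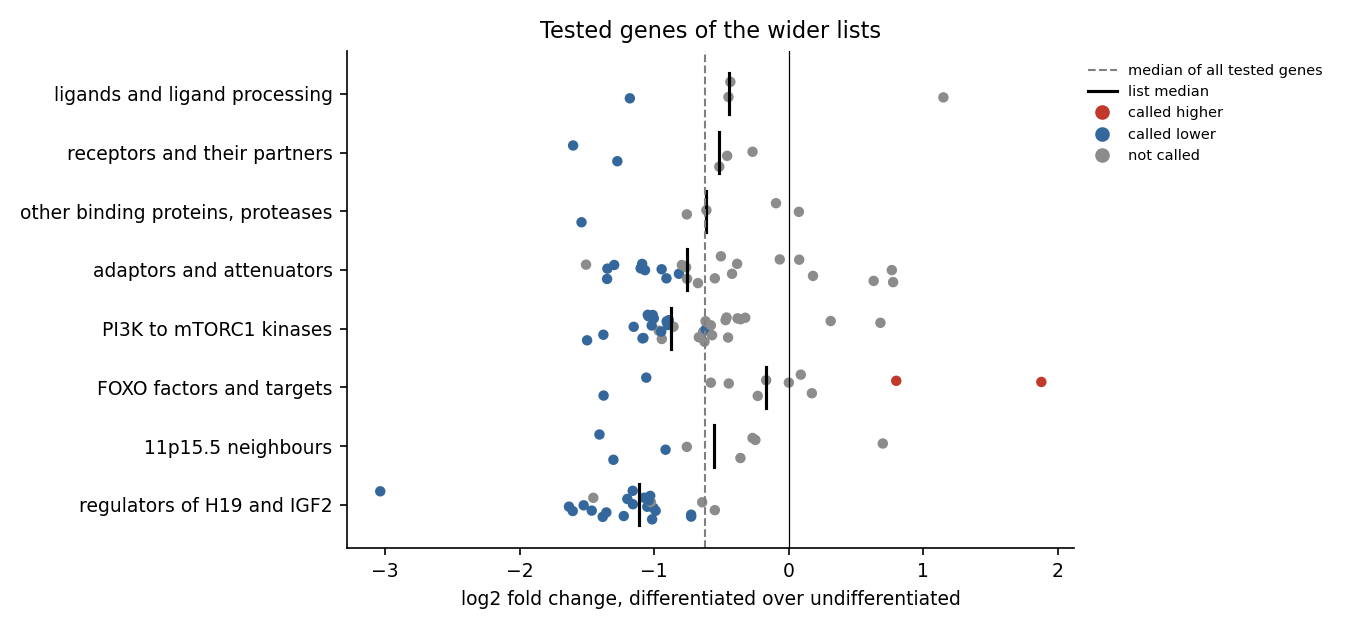
Log2 fold change of each tested gene of the 8 lists, differentiated over undifferentiated, coloured by the authors' call, with a black bar at each list median and a dashed line at -0.62, the median of all tested genes. The 2 genes called higher are in the FOXO list, and the regulators of H19 and IGF2 have the lowest list median, -1.12.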

How the data were processed

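RNA of 4 SH-SY5Y libraries, 2 per group, was depleted of ribosomal RNA, randomly primed and sequenced in 1 lane per library, per the labels' protocols. TopHat2 2.0.8, Cufflinks 2.0.2 and hg19 are named in the submitters' processing notes, with no role or order. The authors deposited 1 FPKM for each gene in each group, a log2 fold, a statistic (a score, opposite in sign to the fold), p-values and q-values, per the file headers. For scaling, annotation and strand setting the sources used here say nothing. The labels do not say whether replicates were separate cultures, so p-values may measure technical spread. Depth is unknown and no counting interval is given.

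The 10 genes and all lists were chosen with earlier results of these data known. Of 12810 tested rows, 11200 had a mean of at least 1 FPKM; 28 date-named rows were left out. The implied standard error is the size of the log2 fold over that of the statistic. As an alternative, folds less the median of 11169 genes were divided by it, and two-sided normal p-values were adjusted by Benjamini-Hochberg over those genes; this was tested on simulated data. Up to 4 called genes per list with the largest change were named, and the 3 genes nearest to H19 in fold. Listed starts were raised by 1. Sequences are from RefSeq (GRCh38.p14) and GENCODE release 29 (GRCh38). Python 3.11.15, pandas 2.3.3, numpy 2.4.6, scipy 1.17.1 and matplotlib 3.10.9 were used. Some genes of the lists are counted but not reported here by name.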

Additional observations from a re-analysis of the deposited data

How the results depend on the processing

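H19 and IGF2 stayed called higher under each of the 3 rescalings. Each rescaling raises every log2 fold, so positive folds of this size could only grow, and nothing is read from it. With a pseudocount of 3 the log2 folds of H19 and IGF2 were 4.96 and 1.495. The rescalings add 0.62 (median gene), 0.78 (equal sums) and 0.69 (equal upper quartiles) to every log2 fold. In that order the signs turned for IGF2R (0.13, 0.29, 0.20), INSR (0.28, 0.44, 0.35), IRS2 (0.15, 0.31, 0.22), IGFBP2 (0.48, 0.64, 0.55), IGFBP4 (0.048, 0.21, 0.12) and IGFBP5 (0.34, 0.50, 0.41), none past the threshold. The 1 gene called lower, IGF1R, became 0 under each rescaling and at q below 0.01. Over the whole table the 246 higher and 3518 lower calls became 630 and 509, 895 and 313, and 718 and 411 in the same order. They became 147 and 2163 at q below 0.01, and 111 and 2936 among genes averaging 5 FPKM or more. The wider lists went to 6 higher and 5 lower, 8 and 2, and 6 and 3. The normal test without rescaling, added after seeing the data, gave 251 higher and 3612 lower genes in the whole table and 2 and 55 in the wider lists, so the change of test alone moved these counts little. Calls could not be recomputed with a pseudocount. Leaving out a replicate was not run, since the table holds no values per library. No paired analysis was possible because the columns are group values.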
